A study of Mus musculus with 10 samples.

Results

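The transcripts of 9 genes that build tight and adherens junctions were followed in endothelial cells purified from mouse gliomas after deletion of Sox7 or Sox17. The genes were Cldn5, Cldn12, Ocln, Tjp1, Lsr, F11r, Jam2, Esam and Cdh5, taken by symbol from the 23238 symbols shared by the 10 count tables. All 9 passed the filter on low counts and were among the 13040 genes tested. The Sox7 ECKO group held 2 libraries from mice in which Sox7 fl/fl alleles were crossed with the Cdh5(BAC)-CreERT2 driver, and the Sox7 control group held 2. Likewise, the Sox17 ECKO group held 3 libraries with Sox17 fl/fl alleles and the same driver, and the Sox17 control group held 3. Every library came from C57BL/6 mice bearing tumours of the GL26 glioma line, grown after injection into the brain. Tamoxifen at 20 mg/kg, which switches on the recombinase, was given to the animals that the design text calls experimental. Whether controls received tamoxifen or carried the driver is not given in the sources used here, so deletion, drug and recombinase cannot be told apart. A library of each group shared a number with a library of the matching group, which gave 2 Sox7 sets and 3 Sox17 sets. The values are counts of tags read near the 3′ end of polyadenylated RNA, scaled to CPM (counts-per-million) on library sizes adjusted by the trimmed mean of M-values.

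Tight junctions seal the gap between neighbouring endothelial cells: claudins and occludin cross the membrane, and scaffold proteins such as ZO-1 (Tjp1) tie them to actin. Adherens junctions hold the same cells together through VE-cadherin (Cdh5) and catenins, and the immunoglobulin-like proteins of the JAM family take part in building both contacts. In brain vessels these junctions are tight enough to form part of the blood-brain barrier, which is often leaky in glioma. Sox7 and Sox17 belong to the SoxF transcription factors of endothelium.

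The RefSeq promoter table of GRCm38.p6 matched 6 of the 9 genes, Cldn5, Cldn12, Ocln, Tjp1, Lsr and F11r, with 9 windows that run from 250 bases before to 50 bases after a transcript start. The 250 bases before the start are shown for Cldn5, the more abundant claudin, and for Tjp1 and Lsr, the genes that lay lower in the ECKO library of all 5 sets. Capitals mark each CG pair. They lie at chr16:18776597-18776846 on the plus strand (Cldn5), chr7:65371245-65371494 on the minus strand (Tjp1) and chr7:30973470-30973719 on the minus strand (Lsr), each printed 5′ to 3′ on the gene's strand.
Cldn5: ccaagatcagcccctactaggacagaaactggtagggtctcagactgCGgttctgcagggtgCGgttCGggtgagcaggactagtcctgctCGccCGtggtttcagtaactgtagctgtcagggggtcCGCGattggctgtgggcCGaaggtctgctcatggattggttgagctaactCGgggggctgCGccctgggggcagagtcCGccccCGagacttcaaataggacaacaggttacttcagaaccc
Tjp1: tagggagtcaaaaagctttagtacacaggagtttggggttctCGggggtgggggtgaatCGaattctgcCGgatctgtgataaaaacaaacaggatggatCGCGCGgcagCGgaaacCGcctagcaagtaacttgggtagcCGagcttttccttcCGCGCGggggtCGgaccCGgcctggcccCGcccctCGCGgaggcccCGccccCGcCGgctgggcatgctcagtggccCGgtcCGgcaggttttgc
Lsr: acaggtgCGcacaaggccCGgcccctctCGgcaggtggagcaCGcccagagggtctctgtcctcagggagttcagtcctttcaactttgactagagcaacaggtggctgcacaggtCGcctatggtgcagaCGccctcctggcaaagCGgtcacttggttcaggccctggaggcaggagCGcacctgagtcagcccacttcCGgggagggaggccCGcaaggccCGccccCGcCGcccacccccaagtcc
These stretches held 12 CG pairs in Cldn5, 22 in Tjp1 and 13 in Lsr, against a median of 6 over all 32851 windows of the table. The letters ACAAT, the core that SOX proteins bind, were searched on both strands, as were a longer form that contains this core, AACAAT, and a further SOX-type word with the letters ACAAAG. None of the 9 windows of the junction genes held any of the 3, whereas 31.0% of all windows held the core, 10.7% the longer form and 18.7% the further word. The windows cover 300 bases each, and no other stretch was searched. The Tjp1 window precedes a transcript start that lies inside the annotated gene, chr7:65296165-65527781 on the minus strand. No window covered the outermost annotated start of Tjp1. The 3 windows of Cldn12 overlap each other, as do the 2 of Ocln, so the 9 are not separate stretches. Their GC content ran from 45.3% to 68.0%, and no share over windows of like GC content was taken.

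The libraries held between 2082305 and 35068802 counts, with the lowest total in Sox17 control 1 and the highest in Sox17 ECKO 2. A floor of 3 counts stood for 0.0847 to 1.36 CPM on the adjusted library sizes, a limit that covers counting error only. All 15 endothelial markers were detected in every library, which does not measure the share of other cell types. The targeted transcripts were low in their own arm: Sox7 was at 0.58 and 0.66 CPM in Sox7 ECKO libraries, against 23.1 and 5.90 CPM in Sox7 control libraries. Sox17 was at 1.93, 1.07 and 6.70 CPM in Sox17 ECKO libraries, against 174, 90.1 and 93.4 CPM in Sox17 control libraries. The log2 fold changes were -4.52 for Sox7 and -5.24 for Sox17, and edgeR's adjusted p-values were 1 and 0.226. For Sox17 the adjusted p was 9.05e-11 with DESeq2, 5.6e-17 in edgeR with no filter on low counts and 0.000897 in edgeR with the set number as a block. It was also past the threshold in edgeR when Sox7 ECKO 1, Sox7 ECKO 2 or Sox17 ECKO 3 was left out, at 0.00381, 0.00734 and 0.0207. For Sox7 the adjusted p was 0.00384 in edgeR with no filter, 0.0959 with DESeq2 and 0.298 in edgeR with the block. Over all settings tried, these adjusted p-values ran from 5.6e-17 to 1 for Sox17 and from 0.00384 to 1 for Sox7. Which exons the floxed alleles remove is not given, so a 3′ tag may or may not lie in the deleted stretch. One library stood apart: the 12 macrophage and microglia markers summed to 17854 CPM in Sox7 ECKO 1, against 1025 CPM in Sox7 control 1. In Sox7 set 2 the same sum was 136 CPM in the ECKO library and 372 CPM in the control library. The 15 endothelial markers summed to 8459 CPM in Sox7 ECKO 1, less than its macrophage and microglia sum, and to 14465 CPM in Sox7 control 1. The labels do not say that libraries came from separate animals, so p-values measure the spread between these libraries, which may be technical, and in bulk RNA fewer cells of a type and less RNA per cell cannot be told apart.

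Junction transcripts spanned more than 2 orders of magnitude, and the order of the genes was much the same in every library. Averaged over 10 libraries, Esam stood at 2852 ± 768 CPM (SD), rank 15 of 13040 genes tested. Cldn5 followed at 1152 ± 295 CPM and F11r at 1048 ± 520 CPM, ranks 75 and 87. Lsr averaged 609 ± 156 CPM, Cdh5 416 ± 125 CPM and Tjp1 273 ± 54.4 CPM. The 3 least abundant were Jam2 at 63.4 ± 29.5 CPM, Ocln at 38.7 ± 22.5 CPM and Cldn12 at 14.4 ± 8.17 CPM. A 3′ tag count does not grow with transcript length, so these levels need no correction for length. Other differences between genes in how tags are counted were not examined, so the order is one of tag counts. Esam exceeded Cldn5, Cdh5 exceeded Tjp1, Tjp1 exceeded Jam2 and Ocln exceeded Cldn12 in 10 of 10 libraries. Cldn5 exceeded F11r in 6 of 10, so those neighbours did not differ beyond their spread. F11r over Lsr and Lsr over Cdh5 held in 8 of 10, and Jam2 over Ocln in 9 of 10. Esam alone supplied 33.5% to 50.9% of the tags of the 9 genes, Cldn5 12.9% to 25.2% and F11r 9.76% to 24.4%. Cldn12 and Ocln supplied at most 0.38% and 1.89%.

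**Figure D1:**
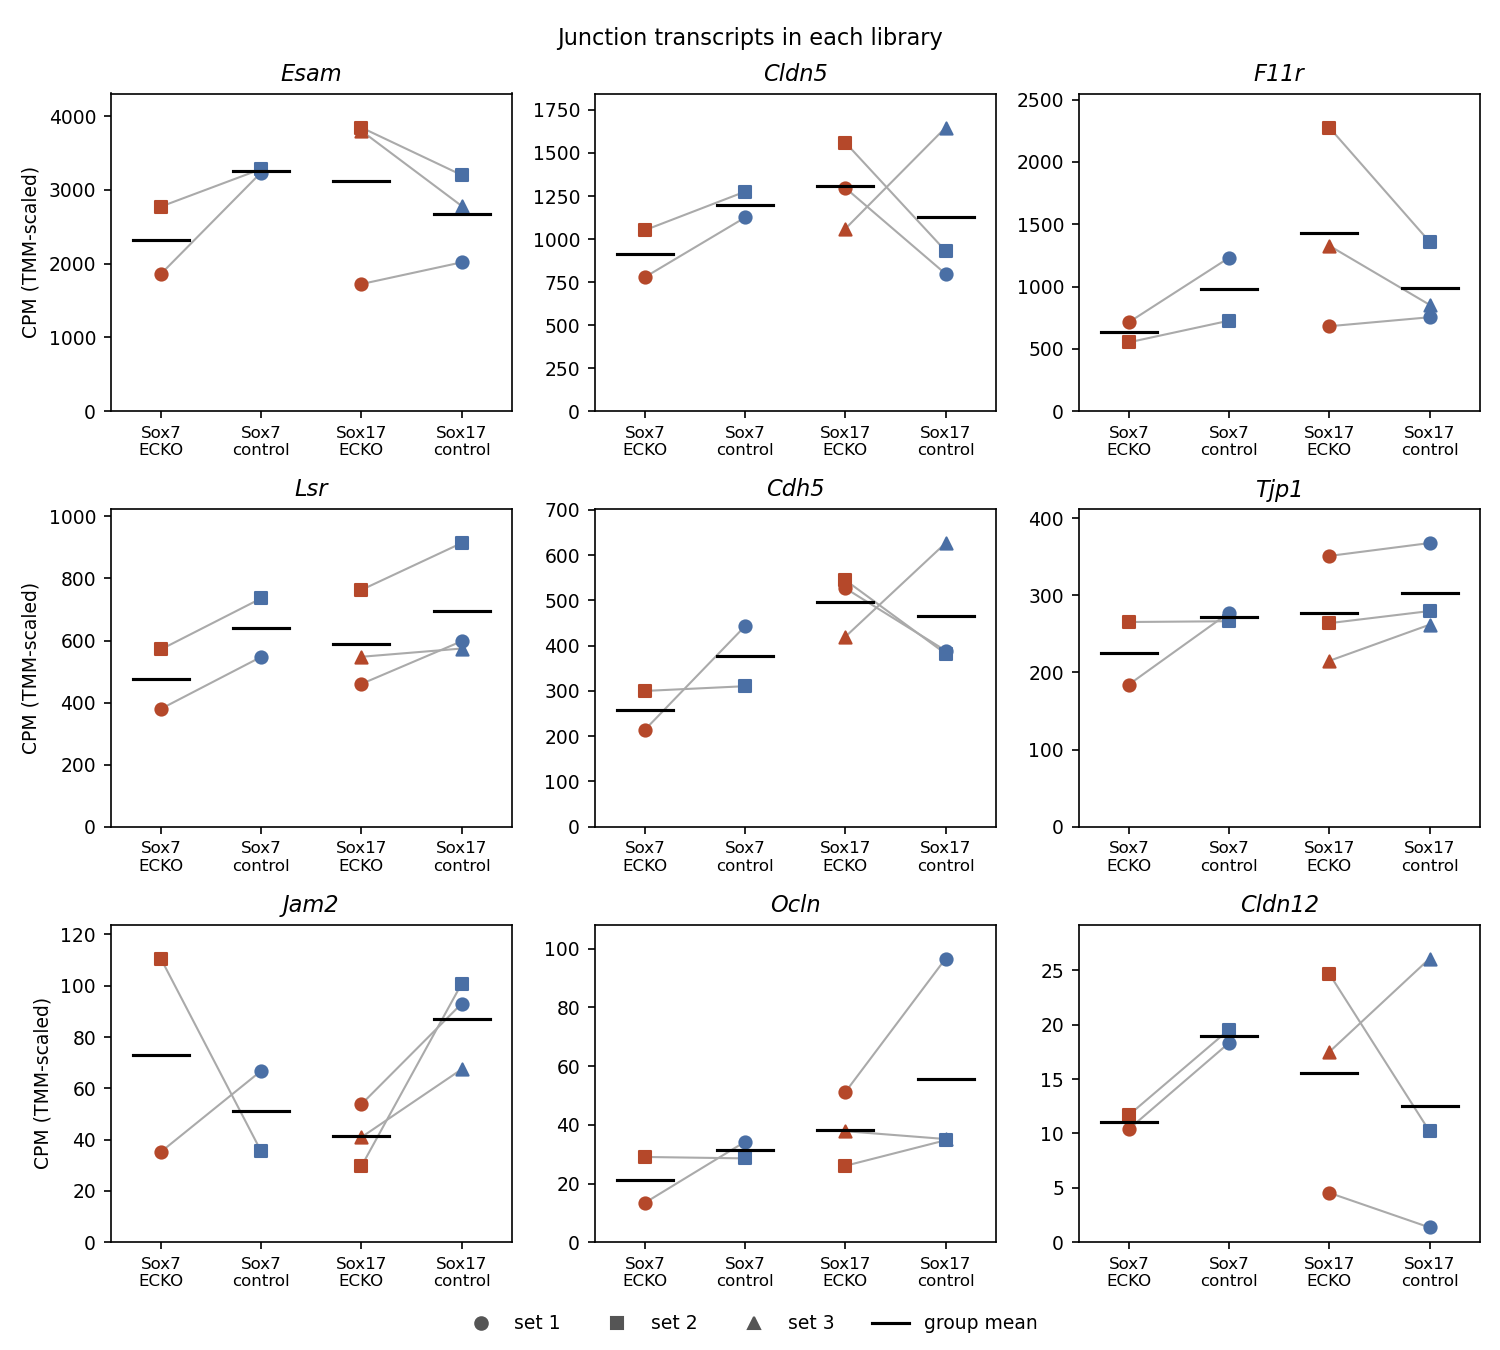
CPM of each of the 9 junction genes in the 10 libraries, on a linear axis from 0, with ECKO libraries in red and control libraries in blue, symbols for the set number, grey lines joining the libraries of a set and black bars for group means. Esam lies between 1724 and 3844 CPM and Cldn12 between 1.36 and 26.1 CPM, and in Sox17 libraries only Jam2 has ECKO and control values that do not overlap.

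Cldn5 (ENSMUSG00000041378, chr16:18776847-18778262, plus strand) encodes claudin-5, the main claudin of brain endothelium, whose loss in mice opens the barrier to small molecules. It was counted at 778 and 1052 CPM in Sox7 ECKO libraries 1 and 2, against 1125 and 1275 CPM in Sox7 control libraries 1 and 2. Both ECKO values lay below both control values, and the log2 fold change was -0.39 (SE 0.48, 95% interval -1.40 to 0.62). The Sox17 ECKO libraries 1 to 3 held 1297, 1560.3 and 1060.0 CPM, against 798, 931 and 1648 CPM in the Sox17 control libraries. Here the groups overlapped, since set 3 ran opposite to sets 1 and 2, and the log2 fold change was 0.21 (SE 0.39, 95% interval -0.61 to 1.04). On a linear scale that interval spans 0.656-fold to 2.05-fold. Cldn12 (ENSMUSG00000046798, chr5:5489537-5514958, minus strand) encodes claudin-12, a further claudin of brain endothelium that lacks the PDZ-binding end of most claudins. It was at 10.4 and 11.7 CPM in Sox7 ECKO libraries, against 18.3 and 19.5 CPM in Sox7 control libraries, which did not overlap. Sox17 ECKO libraries held 4.54, 24.7 and 17.5 CPM, against 1.36, 10.2 and 26.1 CPM in Sox17 control libraries. The lowest of these rested on 3 counts in the shallowest library, and the fits gave -0.78 (SE 1.30) for Sox7 and 0.30 (SE 1.06) for Sox17. Neither claudin had an interval that left out 0 in either arm.

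Ocln (ENSMUSG00000021638, chr13:100496507-100552718, minus strand) encodes occludin, which stabilises and tunes the seal. It was at 13.4 and 29.1 CPM in Sox7 ECKO libraries, against 34.2 and 28.6 CPM in Sox7 control libraries. Sox17 ECKO libraries held 51.2, 26.0 and 37.8 CPM, against 96.7, 34.8 and 35.2 CPM in Sox17 control libraries. Both arms overlapped, with the lowest value in Sox7 ECKO 1 and the highest in Sox17 control 1. The log2 fold changes were -0.56 (SE 0.70) and -0.53 (SE 0.57). Lsr (ENSMUSG00000001247, chr7:30957770-30973464, minus strand) encodes angulin-1, a protein of the corners where 3 cells meet. It was at 380 and 571 CPM in Sox7 ECKO libraries, against 547 and 736 CPM in Sox7 control libraries. The log2 fold change was -0.43 (SE 0.47, 95% interval -1.42 to 0.56). Sox17 ECKO libraries held 460.1, 763 and 548 CPM, against 598, 914 and 574 CPM in Sox17 control libraries. Its groups overlapped in both arms although each ECKO library lay below the control of its own set, and the Sox17 log2 fold change was -0.24 (SE 0.39). The 3′ end of Lsr is also covered by the antisense genes Gm17077 and Gm4673, and the strand setting of the counting is not given, so its counts are uncertain.

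The JAM family gave the largest and the most divided values. Esam (ENSMUSG00000001946, chr9:37528078-37538319, plus strand), an endothelial adhesion molecule of tight junctions, was at 1859 and 2773 CPM in Sox7 ECKO libraries, against 3234 and 3281 CPM in Sox7 control libraries. Those groups did not overlap, and the log2 fold change was -0.49 (SE 0.51, 95% interval -1.55 to 0.57). Sox17 ECKO libraries held 1724, 3844 and 3800.4 CPM, against 2018, 3201 and 2782 CPM in Sox17 control libraries, which overlapped, with a log2 fold change of 0.23 (SE 0.41). F11r (ENSMUSG00000038235, chr1:171437535-171464603, plus strand) encodes JAM-A, which recruits polarity proteins to new contacts. It was at 714 and 553 CPM in Sox7 ECKO libraries, against 1232 and 727 CPM in Sox7 control libraries. The Sox17 ECKO libraries held 682, 2276 and 1328 CPM, against 754, 1359.5 and 854 CPM in the Sox17 control libraries. Its 2 Sox7 groups did not overlap, its Sox17 groups did, and the log2 fold changes were -0.63 (SE 0.55) for Sox7 and 0.53 (SE 0.45) for Sox17. Jam2 (ENSMUSG00000053062, chr16:84774123-84825928, plus strand) encodes JAM-B, which binds JAM-C and leukocyte integrins. It was at 35.2 and 110.6 CPM in Sox7 ECKO libraries, against 66.8 and 35.5 CPM in Sox7 control libraries, with sets of opposite sign and a log2 fold change of 0.51 (SE 0.60). Sox17 ECKO libraries held 53.8, 29.6 and 40.9 CPM, against 93.0, 100.8 and 67.4 CPM in Sox17 control libraries.

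Jam2 was therefore the junction gene whose Sox17 groups stood apart, with every ECKO library below every control library. Of the 9 genes, 1 had Sox17 groups that did not overlap with ECKO below control, against 4.23% of all genes tested. A further 4.13% of all genes had ECKO above control without overlap, and 0 of the 9 did. Jam2 was picked from the 9 for this separation, so these shares are no measure for it. The log2 fold change was -1.07 (SE 0.50, 95% interval -2.12 to -0.03), and its unadjusted p of 0.0452 in edgeR's quasi-likelihood test ranked 401 of 13040. In that test 1 of the 9 genes was below an unadjusted p of 0.05, against 3.52% of all genes tested. The edgeR adjusted p of Jam2 was 1. The sum of the 8 pericyte markers ran the same way, at 211 to 239 CPM in Sox17 ECKO libraries and 272 to 867 CPM in Sox17 control libraries. The geometric mean of CPM + 1 over these markers overlapped, at 15.2 to 22.4 in Sox17 ECKO libraries and 20.0 to 61.0 in Sox17 control libraries. Anpep was at 0 in a library of each group. The part of these markers in the Jam2 values was not tested.

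Tjp1 (ENSMUSG00000030516, chr7:65296165-65527781, minus strand) encodes ZO-1, the scaffold that links claudins, occludin and JAM-A to actin. It was at 184 and 265 CPM in Sox7 ECKO libraries, against 277 and 266 CPM in Sox7 control libraries. The Sox17 ECKO libraries held 351, 264 and 215 CPM, against 368, 279.5 and 262 CPM in the Sox17 control libraries. The Sox7 groups lay apart by less than 2 CPM at their nearest values, the Sox17 groups overlapped, and the log2 fold changes were -0.27 (SE 0.45) and -0.13 (SE 0.37). Cdh5 (ENSMUSG00000031871, chr8:104101625-104144511, plus strand) encodes VE-cadherin, the adhesion protein of endothelial adherens junctions, and its promoter drives the recombinase used here. It was at 214 and 299.9 CPM in Sox7 ECKO libraries, against 443 and 310.4 CPM in Sox7 control libraries, which did not overlap. The log2 fold change of -0.55 (SE 0.46, 95% interval -1.52 to 0.42) had the smallest unadjusted p of the 9 genes in the Sox7 arm, 0.247 by edgeR. Sox17 ECKO libraries held 527, 545 and 419.6 CPM, against 389, 382 and 626 CPM in Sox17 control libraries. These overlapped, and the log2 fold change was 0.09 (SE 0.38). Whether controls carry the Cdh5 driver transgene is not given, and its part in the Cdh5 counts was not tested.

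After Sox7 deletion, 8 of the 9 junction transcripts had a negative log2 fold change and Jam2 a positive one, with none past the threshold. The median over the 9 was -0.49, against 0.04 over all genes tested, of which 47.5% were below 0 and 51.9% above. Values ran from -0.78 for Cldn12 to 0.51 for Jam2, with standard errors of 0.45 to 1.30. In 7 of 9 genes the ECKO library was the lower in both sets, against 22.5% of all genes. Both ECKO values lay below both control values for 6 of 9 genes, Cldn5, Cldn12, Tjp1, F11r, Esam and Cdh5, against 12.8% of all genes. The edgeR adjusted p was 1 for each of the 9. With an adjusted threshold of 0.05, edgeR called 0 of 13040 genes in this comparison (0.0%), DESeq2 3 and limma-voom 0. At an unadjusted p of 0.05, edgeR called 195 genes (1.5%) and 0 of the 9 junction genes.

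Much of this shift sat in Sox7 set 1. All 9 genes were lower in Sox7 ECKO 1 than in its control, against 47.4% of all genes, with a median set difference of -0.79 on the log2(CPM + 1) scale and values from -1.29 (Ocln) to -0.53 (Lsr). Sox7 ECKO 1 held the lowest value of all 10 libraries for 5 genes, Cldn5, Ocln, Tjp1, Lsr and Cdh5, and the lowest sum of the 9, 4188 CPM. In Sox7 set 2, 7 of 9 were lower, against 46.2% of all genes, and the median was -0.24. That is the set in which Cldn5 differed by -0.28, Lsr by -0.36, F11r by -0.39 and Esam by -0.24, while Tjp1, Ocln and Cdh5 lay within 0.05 of 0. Sox7 ECKO 1 is the library with the high macrophage marker sum, and all 12 of those markers had counts in it. All 15 endothelial markers were lower in it than in its control, and their geometric mean was 253 CPM in Sox7 ECKO 1 and 462 CPM in Sox7 control 1. Their part in the result was not tested. Without Sox7 ECKO 1, 8 of 9 log2 fold changes stayed negative with a median of -0.22. In that fit 58.1% of all genes were negative, with a median of -0.26, so the median of the 9 was no lower than that of all genes. Without Sox7 ECKO 2 all 9 were negative with a median of -0.76, where 46.7% of all genes were negative with a median of 0.01. By gene, the log2 fold change without Sox7 ECKO 1 was -0.22 for Cldn5, -0.72 for Cldn12, -0.14 for Ocln, -0.06 for Tjp1, -0.19 for Lsr, -0.85 for F11r, -0.26 for Esam, -0.36 for Cdh5 and 1.08 for Jam2. Cldn12 and F11r thus kept values near or beyond those of all 4 libraries, while Ocln, Tjp1 and Lsr came close to 0. Without Sox7 ECKO 2 it was -0.62 for Cldn5, -1.23 for Ocln, -0.56 for Tjp1, -0.76 for Lsr, -0.81 for Esam and -0.54 for Jam2. The controls also carried weight: without Sox7 control 1 it was -0.22 for F11r and -0.29 for Cdh5, and without Sox7 control 2 it was -0.20 for Lsr and -0.96 for F11r. Sox7 ECKO 2 alone lay below both controls for 6 of 9 genes, against 33.8% of all genes.

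**Figure D2:**
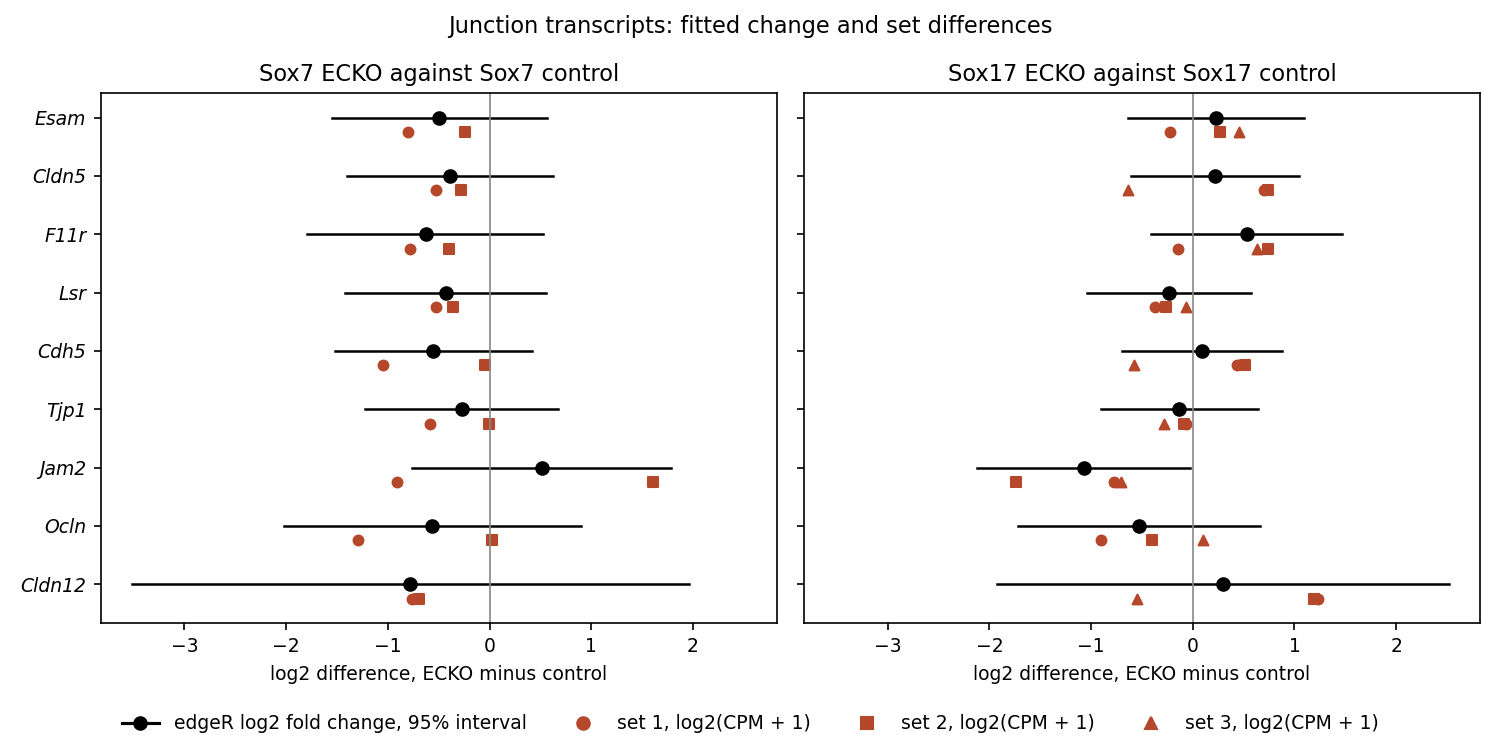
Log2 difference, ECKO minus control, of the 9 junction genes in the Sox7 comparison and the Sox17 comparison, with black points for the edgeR log2 fold change, lines for its 95% interval and red symbols for each set on log2(CPM + 1). Only the Sox17 interval of Jam2, -2.12 to -0.03, lies on 1 side of 0, and its adjusted p was 1.

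After Sox17 deletion the junction transcripts showed no common direction: 4 of 9 log2 fold changes were negative and 5 positive. The median was 0.09, against 0.05 over all genes tested, of which 47.1% were below 0 and 52.8% above. Jam2 at -1.07 and Ocln at -0.53 were the lowest, and F11r at 0.53 and Cldn12 at 0.30 the highest. Tjp1, Lsr and Jam2 were lower in the ECKO library of all 3 sets, 3 of 9 genes against 11.5% of all genes. Sox17 ECKO values above all control values were found for 0 of 9 genes, against 4.13% of all genes. By set, 6, 4 and 6 of the 9 were lower in sets 1, 2 and 3, against 37.4%, 49.3% and 55.6% of all genes. The edgeR adjusted p was 1 for each of the 9, and edgeR called 0 of 13040 genes in this comparison (0.0%), with 459 at an unadjusted p of 0.05 (3.52%). DESeq2 called 29 genes and limma-voom 0 at the adjusted threshold of 0.05. Leaving out Sox17 ECKO 2 put the median of the 9 at -0.10 with 5 negative, against 0.001 over all genes, of which 49.8% were negative. Leaving out Sox17 control 3 put the median of the 9 at 0.26, against 0.115 over all genes. F11r was at 0.02 without Sox17 ECKO 2, 0.86 without Sox17 ECKO 1 and 0.82 without Sox17 control 2. Cldn12 was at -0.20 without Sox17 ECKO 2, -0.23 without Sox17 control 1 and 1.40 without Sox17 control 3.

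Set against each other, the Sox7 effect was the lower for 8 of 9 junction genes. The difference, Sox7 effect minus Sox17 effect, had a median of -0.61 over the 9 and 0.02 over all genes, of which 49.4% were below 0 and 50.6% above. F11r differed by -1.16 (SE 0.71, 95% interval -2.65 to 0.33) and Cldn12 by -1.08 (SE 1.68). Without Sox17 ECKO 2 these were -0.65 for F11r and -0.58 for Cldn12, without Sox7 control 1 F11r was at -0.75, and Cldn12 was at -0.56 without Sox17 control 1 and -2.18 without Sox17 control 3. Jam2 ran the other way, at 1.58 (SE 0.78, 95% interval -0.06 to 3.23) with an unadjusted edgeR p of 0.0585, and at 0.53 without Sox7 ECKO 2. No difference passed the threshold: the edgeR adjusted p was 1 for each, edgeR called 0 of 13040 genes (0.0%) and 374 at an unadjusted p of 0.05 (2.87%), DESeq2 15 and limma-voom 0. Without Sox7 ECKO 1 the number of negative differences was 5 of 9, against 59.9% of all genes, with medians of -0.41 and -0.39. None of the 9 was lower in every Sox7 set and higher in every Sox17 set, a pattern of 3.08% of all genes.

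Tjp1 and Lsr were the genes that lay lower in the ECKO library of all 5 sets, 2 of 9 against 3.34% of all genes tested, and 0 of 9 lay higher in all 5, against 3.32%. Lsr differed by -0.53 and -0.36 in Sox7 sets 1 and 2, and by -0.38, -0.26 and -0.07 in Sox17 sets 1 to 3, a mean of -0.32 ± 0.17 (SD, n = 5 sets). Tjp1 differed by -0.59 and -0.005 in Sox7 sets and by -0.07, -0.08 and -0.28 in Sox17 sets, a mean of -0.20 ± 0.24. These genes were picked out for their shared sign, so their directions are a description with no test, and an exact sign-flip test over 5 sets cannot give a p under 0.0625. With the median-ratio scaling of DESeq2 (RLE), Lsr stayed lower in 5 sets and Tjp1 in 4, with 0.01 as its highest difference.

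The junction genes were also set against the 15 endothelial markers in the same libraries. These markers include Ptprb, which was itself lower in the ECKO library of every Sox17 set. In Sox7 set 1 the 9 genes averaged a difference of -0.80 and the 15 markers -0.87, which left 0.07 between them. The other sets left -0.008 in Sox7 set 2, -0.007 and -0.004 in Sox17 sets 1 and 2, and -0.20 in Sox17 set 3. Read relative to the markers, Lsr was at 0.34 in Sox7 set 1 and between -0.37 and -0.09 in the other 4 sets. Ocln was at -0.42 and 0.06 in the Sox7 sets and at -0.90, -0.52 and 0.08 in the Sox17 sets. Jam2 was at -0.04 and 1.65 in the Sox7 sets and at -0.77, -1.85 and -0.73 in the Sox17 sets. The average of the junction genes thus lay between -0.20 and 0.07 of that of the endothelial markers, while single genes lay between -1.85 and 1.65.

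**Figure D3:**
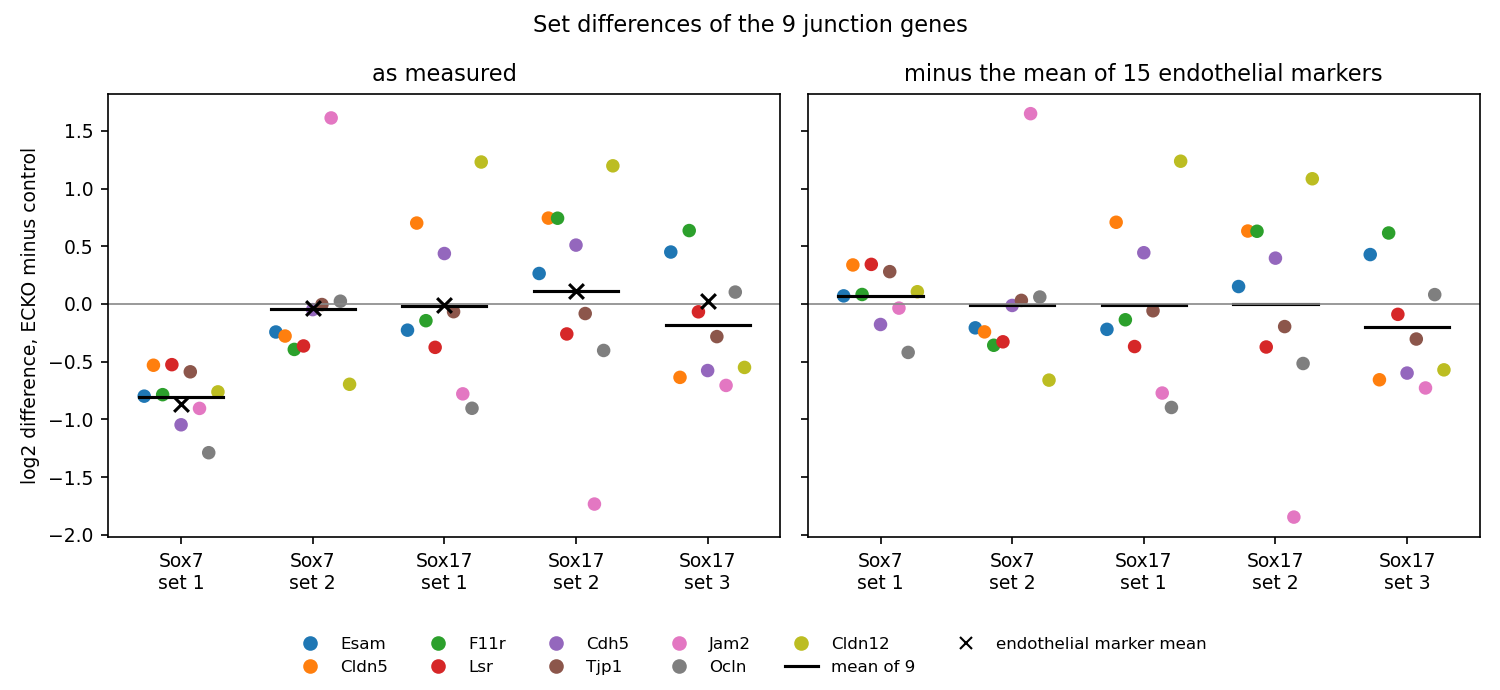
Set differences of the 9 junction genes on log2(CPM + 1), ECKO minus control, as measured (left) and after subtracting the mean difference of 15 endothelial markers (right). Coloured points are genes, black bars their mean and crosses the marker mean. In Sox7 set 1 all 9 genes lie below 0 on the left, and their mean lies at 0.07 on the right.

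How far a junction gene varied between libraries of the same group depended on the gene. The within-group SD of log2(CPM + 1) was 0.29 for Tjp1, 0.33 for Cdh5, 0.37 for Lsr and 0.38 for Cldn5. It was 0.46 for Esam, 0.61 to 0.64 for Jam2, F11r and Ocln, and 1.23 for Cldn12. The median over all genes tested was 0.89. Genes of 100 to 1000 CPM, the range of Tjp1, Cdh5 and Lsr, had a median of 0.51, and those of 1000 CPM or more, the range of Esam, Cldn5 and F11r, a median of 0.54. Those of 10 to 100 CPM, the range of Cldn12, Ocln and Jam2, had 0.77. Thus 8 of the 9 lay below the median of all genes, F11r lay above that of its own range and so did Cldn12. The standard errors of the 9 fits, 0.37 to 1.06 in the Sox17 comparison, compare with a median of 0.97 over all genes.

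**Figure D4:**
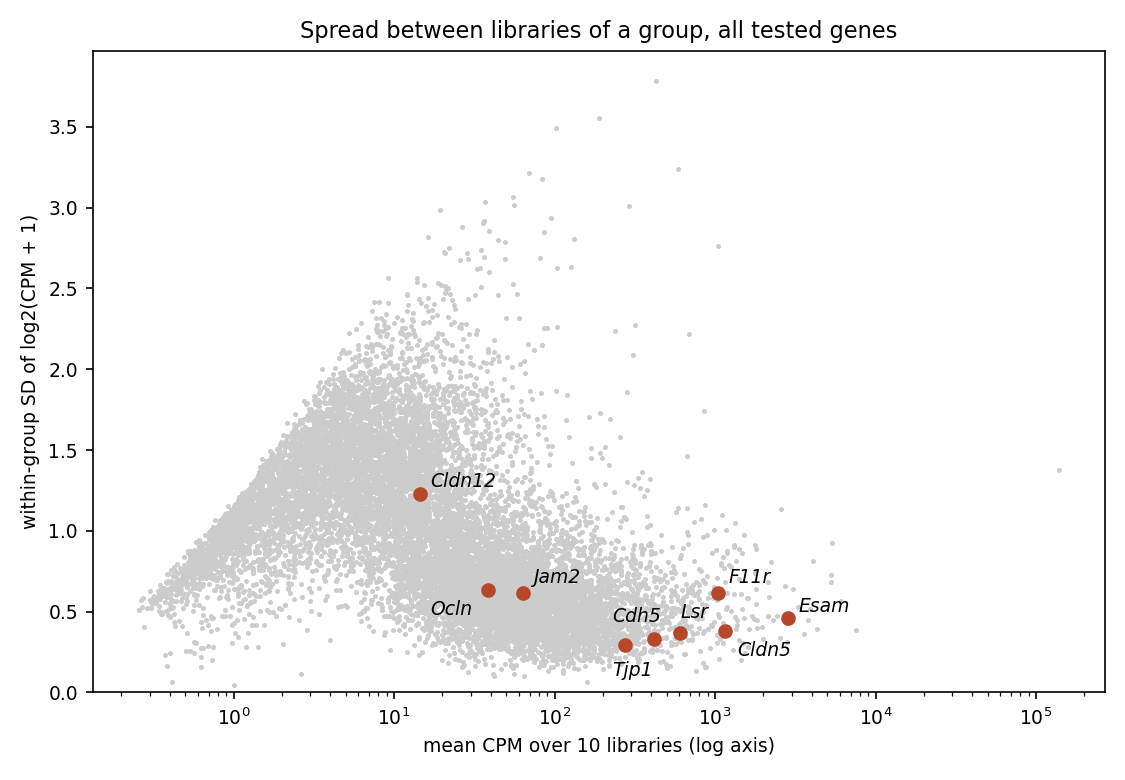
Within-group SD of log2(CPM + 1) against mean CPM over 10 libraries on a log axis, with all 13040 tested genes in grey and the 9 junction genes in red. Tjp1, Cdh5, Lsr and Cldn5 lie at 0.29 to 0.38 and Cldn12 at 1.23.

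Beyond the 9 genes, 60 further genes of endothelial contacts were listed, of which 58 were in the tables and 43 were tested. Claudins other than Cldn5 and Cldn12 were near the floor: Cldn2 and Cldn19 had 0 counts in all 10 libraries, Cldn3 had 4 counts in all, and Cldn1, Cldn10, Cldn11 and Cldn15 reached at most 4.61 CPM. Ildr2, which encodes angulin-3, a relative of Lsr at cell corners, spanned 50.5 to 149 CPM, while Ildr1 was at 0 counts. Marveld2 (tricellulin) spanned 3.78 to 47.7 CPM. Of the scaffold genes, Cgnl1 (paracingulin) spanned 396 to 930.1 CPM, whereas Cgn (cingulin) reached 2.29 CPM. Among partners of VE-cadherin, Ctnnb1 (beta-catenin) spanned 622 to 1548 CPM, Jup (plakoglobin) 185 to 842.5 CPM and Rasip1, a Rap effector, 787 to 2819 CPM. Cdh1 (E-cadherin, an epithelial cadherin) had a median of 0.61 CPM and reached 145 CPM in Sox7 ECKO 1.

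**Figure D5:**
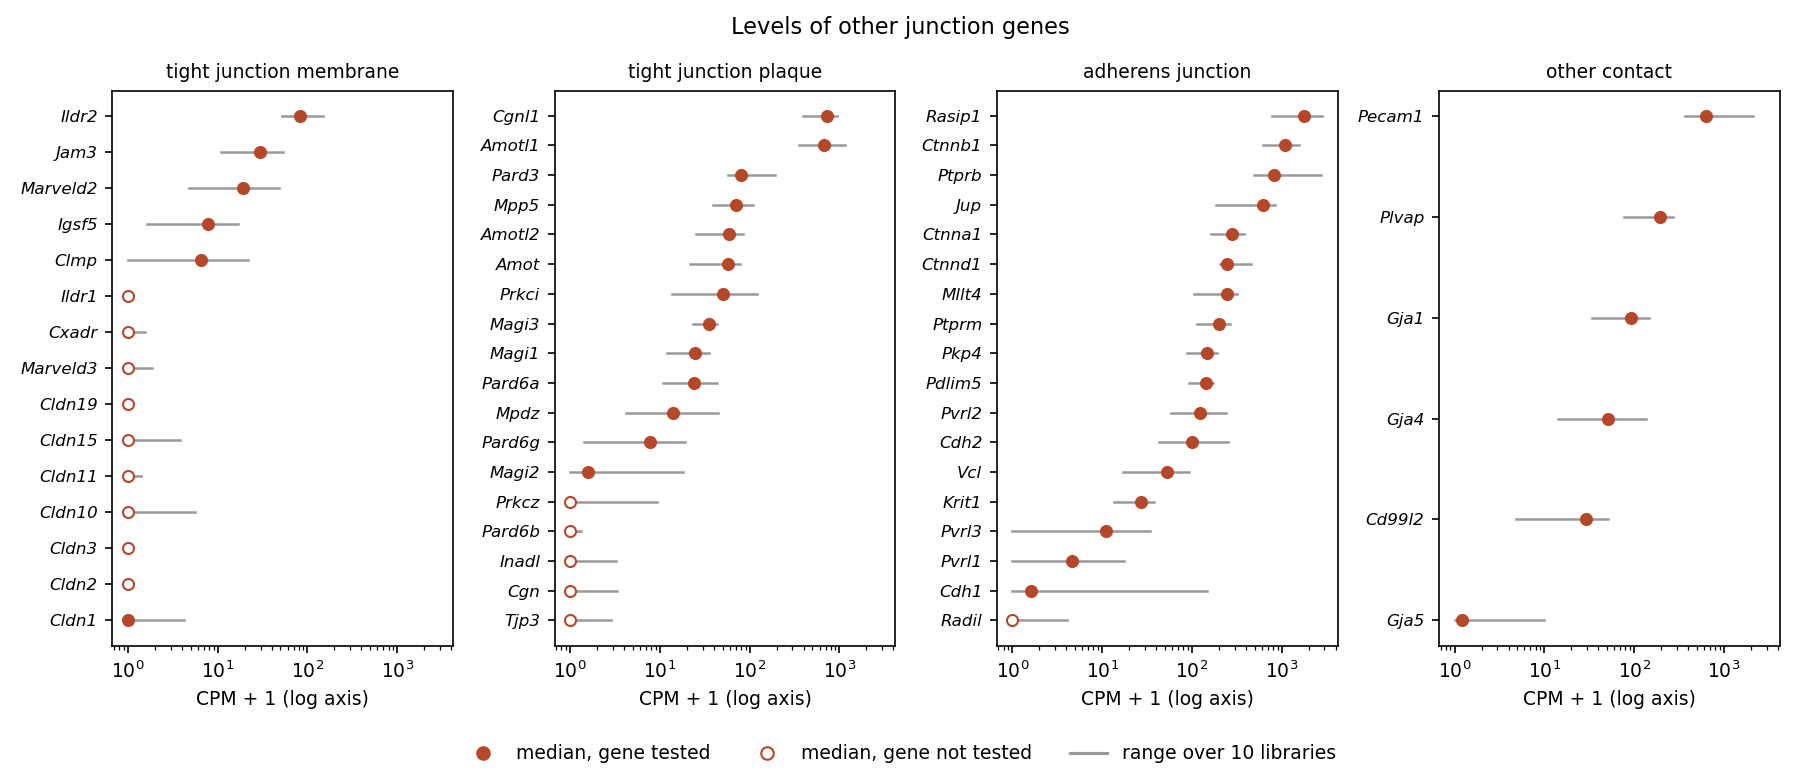
Median (points) and range over 10 libraries (lines) of CPM + 1 on a log axis for further genes of endothelial contacts, in 4 lists. Filled points are genes that were tested. Cgnl1, Rasip1, Ctnnb1 and Pecam1 have medians from 638 to 1782 CPM, and most other claudins lie at 0 CPM.

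In the Sox7 comparison, 33 of the 43 tested contact genes had a negative and 10 a positive log2 fold change, with a median of -0.39, where 47.5% of all genes tested were below 0 and their median was 0.04. Single libraries carried weight: without Sox7 ECKO 1, 26 of 43 were negative, against 58.1% of all genes, with medians of -0.24 and -0.26. The count was also 26 of 43 without Sox7 control 1, against 39.2% of all genes, with medians of -0.36 and 0.22. Without Sox7 ECKO 2, 38 of 43 were negative, against 46.7% of all genes. Sox7 ECKO 1 is the library with the lower endothelial and higher macrophage markers, whose part in these counts was not tested. Pecam1 and Ptprb are both endothelial markers and contact genes here, so the lists are not separate. With all libraries the split was 12 lower and 2 higher among plaque and polarity genes, 12 lower and 5 higher among adherens genes, 3 and 3 among tight junction membrane genes, and 6 lower and 0 higher among the other contact genes. By the naming rule the named genes were Gja4, Mllt4 and Vcl, and no higher gene qualified. Gja4 (connexin 37 of arterial gap junctions) averaged 41.2 ± 12.1 CPM in Sox7 ECKO libraries and 111 ± 31.6 CPM in Sox7 control libraries (SD, n = 2 each). Its values were 32.6 and 49.8 CPM in ECKO against 133.5 and 88.9 CPM in control, without overlap, and the log2 fold change was -1.43 (SE 0.70), with -1.19 without Sox7 ECKO 1. Mllt4 (afadin, which ties nectins to actin) averaged 139 ± 47.4 CPM in Sox7 ECKO libraries and 253 ± 22.2 CPM in Sox7 control libraries, a log2 fold change of -0.87 (SE 0.47), with -0.58 without Sox7 ECKO 1. Vcl (vinculin, recruited to junctions under tension) averaged 27.5 ± 16.3 CPM in Sox7 ECKO libraries and 58.8 ± 30.7 CPM in Sox7 control libraries, a log2 fold change of -1.10 (SE 0.64). Its log2 fold change was -0.62 without Sox7 ECKO 1, -0.43 without Sox7 control 2 and -1.88 without Sox7 ECKO 2. None of the 43 passed the adjusted threshold (edgeR adjusted p = 1), and 0 reached an unadjusted p of 0.05.

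The Sox17 comparison divided the 43 contact genes into 23 lower and 20 higher, with a median of -0.04, where 47.1% of all genes tested were below 0 and their median was 0.05. Plaque and polarity genes were 6 lower and 8 higher, adherens genes 10 and 7, tight junction membrane genes 4 and 2, and the other contact genes 3 and 3. Ptprb encodes VE-PTP, a phosphatase that acts on VE-cadherin and Tie2. It was at 872, 600.3 and 692 CPM in Sox17 ECKO libraries, against 2741, 847 and 994 CPM in Sox17 control libraries. The ECKO libraries lay lower in all 3 sets, the groups overlapped, and the log2 fold change was -1.08 (SE 0.45, unadjusted edgeR p 0.0272, adjusted p 1). Of the 43 contact genes this 1 was below an unadjusted p of 0.05, against 3.52% of all genes tested. Without Sox17 control 1 the log2 fold change was -0.36. Ildr2 averaged 63.0 ± 12.9 CPM in Sox17 ECKO libraries and 106.5 ± 32.2 CPM in Sox17 control libraries, a log2 fold change of -0.76 (SE 0.42). Ctnnd1 (p120-catenin, which keeps cadherins at the surface) averaged 221 ± 16.8 CPM in Sox17 ECKO libraries and 345 ± 92.0 CPM in Sox17 control libraries, a log2 fold change of -0.65 (SE 0.41). On the higher side the rule named Pard6a at 0.45 (SE 0.65), Mpp5 at 0.28 (SE 0.44) and Amotl1 at 0.28 (SE 0.44), genes of the polarity complexes and the angiomotin family. Without Sox17 control 1 they were at 0.28, 0.09 and -0.04, and Amotl1 was at -0.05 without Sox17 ECKO 2, Mpp5 at 0.08 without Sox17 ECKO 3 and 0.65 without Sox17 control 3, and Pard6a at 0.27 without Sox17 ECKO 2.

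Finally, levels over the 10 libraries were compared between genes, as a description only, since the points share libraries, depth and groups. Among the 9 genes, Cldn5 and Cdh5 had Pearson's r = 0.74 and Spearman's rho = 0.81, and r = 0.52 without the 2 libraries farthest from the median of Cldn5. Ocln and Tjp1 had r = 0.85 and rho = 0.55, which was r = 0.48 without Sox17 control 1 and Sox7 ECKO 1. Of 8319 genes at a mean of 10 CPM or more, those most like Cldn5 were Kpnb1 (r = 0.93), Lamb1 (0.90), Wdr77 (0.85), Ptgfrn (0.85) and Cdc25a (0.85). Those most like Ocln were Kitl (r = 0.95), Foxf2 (0.92), Tm4sf1 (0.92), Gng11 (0.92) and Arhgap29 (0.92), and r for Gng11 was 0.31 without the same 2 libraries. For Cdh5 they were Dkk2 (r = 0.91), N4bp3 (0.88), Map4k3 (0.87), Nr2f2 (0.85) and B4gat1 (0.84). Each list holds the highest r of 8319 genes over 10 libraries, so high values follow in part from the choice. Without the 2 farthest libraries, r ran from 0.66 to 0.89 in the Cldn5 list and from 0.65 to 0.85 in the Cdh5 list. In the Ocln list it ran from 0.31 to 0.82.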

How the data were processed

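The deposited tables hold whole-number counts per gene symbol, 1 file per library and not normalised. Per the labels' protocols, total RNA was extracted with Trizol and libraries were made with the Lexogen QuantSeq kit. The names Bowtie2, edgeR and mm10 come from the submitters' processing notes, which give neither role nor version, and the counting tool and its strand setting are not given in the sources used here. No molecular identifiers are mentioned. The 1183 symbols found in the Sox17 tables alone, all beginning with Mir, were left out, and repeated symbols were summed (35 in Sox7 tables, 43 in Sox17 tables). Rn45s, the ribosomal precursor, took 3.93% to 28.8% of counts and was kept.

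Counts were fitted in R 4.3.3 with edgeR 4.0.16 (quasi-likelihood F-test, robust, TMM scaling), all 10 libraries with a mean per group and 6 residual degrees of freedom. The filter removed 10198 symbols, and p-values were adjusted over 13040 by Benjamini and Hochberg. The common biological coefficient of variation was 0.989. Intervals are 95% on the log2 scale. Set differences use log2(CPM + 1), a scale that understates differences of low genes. Positions were read from the GENCODE vM21 annotation of GRCm38 (mm10). Set members share run codes in the sample descriptions in 4 of 5 sets, and Sox17 set 1 carries none. Deviations from group means correlated at 0.21 in the Sox7 sets and at 0.06, 0.057 and 0.043 in the Sox17 sets. With 2 libraries a group, both Sox7 sets give the same value by construction. Set numbers were treated as pairs in the set differences and in the replicate block only. The main fits, with their standard errors, intervals and p-values, are unpaired. Alternatives were RLE scaling, DESeq2 1.42.0, limma-voom (limma 3.58.1), no filter, a replicate block, the arm's own libraries, Rn45s left out, each library left out and other pseudocounts. The members and all lists were chosen with earlier results of these data known. All members were named. The values of 1 listed contact gene are not reported here. Of the other contact genes those past the threshold were to be named, otherwise the 3 higher and 3 lower of smallest unadjusted p whose sets all shared that direction. Tests were tried on simulated data.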

Additional observations from a re-analysis of the deposited data

Results flagged for a closer look

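For 4 of the 21 junction, SoxF and named contact genes looked at, the ECKO library was lower in every Sox7 set and higher in every Sox17 set. This pattern was held by 401 genes, 3.08% of all genes tested. That share is no measure for the 4 genes. Sox7 was itself deleted in its arm, and Pard6a, Mpp5 and Amotl1 had been named for being higher in every Sox17 set. Of all genes tested, 1713 were higher in every Sox17 set, and the 401 are among them. The edgeR adjusted p of the difference between the arms was 1 for each of the 4 genes. The targeted gene Sox7 had a difference, Sox7 effect minus Sox17 effect, of -5.17 (SE 1.24, unadjusted edgeR p 0.000559). Pard6a, a polarity gene, had a difference of -1.69 (SE 1.03), with set differences of -1.55 and -0.98 in the Sox7 sets and 0.57, 0.37 and 0.41 in the Sox17 sets. Mpp5, which encodes the polarity scaffold Pals1, had a difference of -0.83 (SE 0.69), and Amotl1, of the angiomotin family, -0.82 (SE 0.70). None of the 9 junction genes showed this pattern.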

How the results depend on the processing

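None of the 450 recomputed values of the 9 junction genes passed the threshold, and the smallest adjusted p was 0.503. Of these values 21 had the opposite sign. The number of all genes past the threshold, 0 in each comparison with edgeR, was 3, 29 and 15 (Sox7, Sox17, difference) with DESeq2 and 58, 30 and 58 with no filter on low counts. With the replicate block, which left 3 residual degrees of freedom, it was 1, 6 and 3, and the block changed no call of a junction gene; of the targeted genes it moved Sox17 past the threshold, with an adjusted p of 0.000897. Leaving out single libraries gave 0 to 14, 0 to 1 and 0 to 9, with 14 and 9 reached without Sox7 ECKO 1. It was 0 in each comparison with RLE scaling, limma-voom and Rn45s left out, and 0 in both arms fitted alone. The cause was not tested.

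The difference between arms of Ocln was 0.031 with RLE scaling and with DESeq2, against -0.04, and the mean set difference of Cldn12 was -0.015 with a pseudocount of 5, against 0.08. Leaving out single libraries turned the sign of these log2 values. In the Sox7 comparison Jam2 ran from -0.54 to 1.08, Sox17 from -1.71 to 0.58 and Sox18 from -2.53 to 1.42. The Sox17 comparison gave -0.23 to 1.40 for Cldn12, -0.80 to 0.12 for Ocln, -0.34 to 0.022 for Tjp1, -0.46 to 0.004 for Lsr and -0.04 to 0.37 for Cdh5. It gave -0.015 to 1.16 for Sox7, -0.14 to 0.92 for Sox18 and -0.048 to 0.59 for Amotl1. For the difference between arms Ocln ran from -0.70 to 0.41, Tjp1 from -0.43 to 0.089, Lsr from -0.52 to 0.057 and Sox18 from -3.03 to 0.92. The 90 recomputed set differences moved by less than their spread except for Cldn12 in the Sox7 sets with a pseudocount of 5, at -0.60 and -0.56.

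With 2 or 3 libraries a group, differences of the junction genes anywhere inside the intervals given remain possible. The intervals are not limits of detection. In the main edgeR fit even Sox7 at -4.52 and Sox17 at -5.24, each in its own arm, did not pass the adjusted threshold. Counts of Cldn12 were the thinnest, at 3 in Sox17 control 1.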
